A study of Homo sapiens with 9 samples.

Results

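Glycolysis is the chain of cytosolic reactions that splits glucose into pyruvate and yields ATP and NADH, and lactate dehydrogenase regenerates the NAD+ it needs by turning pyruvate into lactate. Tumor cells often run the pathway at a high rate even where oxygen is present, and most of its enzymes are encoded by abundant mRNAs. GAPDH is one of these enzymes, and its mRNA is also in wide use as a reference for qRT-PCR, the use it had in the study these libraries come from. To learn whether a rise of GAPDH after LINC00673 knockdown was shared by the pathway, 10 genes were examined: HK1, HK2, GPI, ALDOA, TPI1, GAPDH, PGK1, ENO1, PKM and LDHA. They were found by gene symbol and were 10 of the 19930 genes with values. The list was chosen by the higher level of GAPDH in knockdown than in control libraries, so the values of GAPDH and of the other members against the control are given as a description, without a P value.

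RNA was sequenced from the breast cancer cell line MDA-MB-453, in which the long noncoding RNA LINC00673 had been knocked down by transfected siRNA with Lipofectamine 2000. Cells were taken 48 h after transfection, and each of the 3 groups had 3 libraries. The libraries labelled X453_1 and X453_2, both described as Linc00673 knockdown, are called si-#1 and si-#2 here, and those labelled X453_NC, described as control, are called si-NC. The labels do not say which siRNA each knockdown group received, and nothing in them says that the libraries of a group came from separate cultures, so every P value measures the spread between libraries, which may be technical. The level of LINC00673 was not analysed here.

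The values are FPKM, which scale the fragments of a gene by transcript length and by the size of the library, and the number of fragments was not part of the table. From the steps between low values it was estimated at 23400000 to 27400000 per library. Log2(FPKM + 1) correlated at 0.994 to 0.996 within groups and at 0.955 to 0.99 between groups. The epithelial genes KRT8, KRT18, KRT19 and EPCAM were abundant, with KRT8 at 3011 to 3773 FPKM. The summed level of the 7 luminal epithelial markers was 7204 to 7839 FPKM in si-NC, 6076 to 6712 in si-#1 and 6217 to 6874 in si-#2. FOXA1, a luminal factor that MDA-MB-453 cells are known to express, was listed at 0 to 0.04 FPKM, and GATA3 at 0.41 to 0.88, so these markers of the labelled line were listed at or near 0. Whether that comes from the cells or from how the table assigns fragments was not tested. Leukocyte markers summed to at most 0.29 FPKM and endothelial markers to at most 1.01. Of the 3 fibroblast markers, COL1A2 and COL3A1 were near 0, and COL1A1 made up nearly all of a sum of 3.51 to 4.14 FPKM in si-NC and 5.33 to 7.09 in the knockdown libraries. What part other cell types had in the results below was not tested.

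The GAPDH mRNA that the study's qRT-PCR reads was located first, because its primers mark the part of the gene on which that reference rests. The primers, in lower case throughout and 5′ to 3′, were as follows.
GAPDH forward primer: cacccactcctccacctttga
GAPDH reverse primer: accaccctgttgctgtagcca
The forward primer matched chr12:6537925-6537945 (GRCh38, plus strand) in exon 8 of 9, and the reverse primer matched chr12:6538116-6538136 on the minus strand in exon 9, with a product of 108 bases on the transcript. Among the transcripts of GENCODE v29, both primers also matched in full 2 other genes, the processed pseudogenes GAPDHP40 and GAPDHP64.

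Several of these genes are known targets of factors that bind a short core in promoters: the hypoxia-inducible factors bind ACGTG or GCGTG, and MYC with MAX binds CACGTG, which contains the first of these. Windows from 250 bases before to 50 bases after annotated start sites were taken from RefSeq (GRCh38.p14) for all 10 genes, 21 windows in all. ACGTG was found on either strand in 10 of the 21 windows, which belonged to 7 of the 10 genes, against 21.4% of the 35116 windows of all genes and 24.9% of all genes. CACGTG, each copy of which also holds ACGTG on both strands, was found in 4 of the 21 windows, from 4 genes, against 7.3% of all windows. No window of ENO1, PKM or HK1 held ACGTG. The other core, GCGTG, was found on either strand in 10 of the 21 windows, against 36.5% of all windows, and in 7 of the 10 genes, against 40.6% of all genes. Windows of ENO1, PKM and HK1 were among these. The stretches below show up to 2 matches from each of the 3 windows with most copies, those of LDHA and HK2 with CACGTG and that of PGK1 with the core alone, and the match in GAPDH. Each is 30 bases, printed on the gene's strand, with ACGTG or CACGTG in capitals, or CACGT, which is ACGTG on the other strand.
LDHA, chr11:18394366-18394395: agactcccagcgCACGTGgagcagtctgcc
LDHA, chr11:18394464-18394493: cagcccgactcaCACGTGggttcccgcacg
HK2, chr2:74834964-74834993: gattgctgcgccCACGTGggagggagcccc
HK2, chr2:74835009-74835038: ttccggcgagagCACGTGgagagaatcgtg
PGK1, chrX:78104033-78104062: cgcggcgtgccggACGTGacaaacggaagc
PGK1, chrX:78104052-78104081: caaacggaagccgCACGTctcactagtacc
GAPDH, chr12:6535171-6535200: gctctgcggggtCACGTGtcgcagaggagc
These matches are a description of the letters, and binding was not measured. GENCODE v29 also has GAPDH transcripts that start upstream of the window listed for that gene.

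In the table the members lie, in GRCh37.p13 as deposited, at chr10:71029756-71161638 (HK1), chr2:75059782-75120481 (HK2), chr19:34850606-34893318 (GPI), chr16:30064411-30081741 (ALDOA), chr12:6976584-6980110 (TPI1), chr12:6643571-6647541 (GAPDH), chrX:77359666-77382324 (PGK1), chr1:8921059-8939151 (ENO1), chr15:72491370-72523965 (PKM) and chr11:18415936-18429765 (LDHA). ENO1 and PKM are on the minus strand and the others on the plus strand, and TPI1 and GAPDH are the only members that share a chromosome.

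All 10 members passed the expression filter, set at an average of 1 FPKM across libraries, which 12884 genes passed. In the si-NC libraries the order of the levels of the known rows was GAPDH, ENO1, LDHA, ALDOA, PKM, GPI, PGK1, HK1, HK2 and TPI1, from a mean of 7308 ± 203 FPKM (SD, n = 3) for GAPDH to 5.04 ± 0.837 FPKM (n = 3) for TPI1. GAPDH ranked 2 among all 19930 genes and made up 58.1% to 58.8% of the summed FPKM of the members. Among neighbours in this order, the libraries of LDHA and ALDOA overlapped, and those of all other neighbours did not. The order was the same in si-#1, where the libraries of LDHA and ALDOA no longer overlapped, and in si-#2 ALDOA stood above LDHA with overlapping libraries. TPI1 and PGK1 also have predicted rows, described below, which are not part of this order or of the sums that follow.

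The mean levels of all 10 genes were higher in both knockdown groups than in si-NC, by different amounts, and GAPDH had the smallest log2 fold change of the 10 deposited rows with either siRNA. Together they summed to 12251 to 12820 FPKM in si-NC, 15550 to 16008 in si-#1 and 19383 to 19794 in si-#2. The members without GAPDH summed to 5195 ± 92.2 FPKM (n = 3) in si-NC, 7765 ± 112 (n = 3) in si-#1 and 9816 ± 86.3 (n = 3) in si-#2. The share of GAPDH in the sum of the members was correspondingly lower, at 50.5% to 50.7% in si-#1 and 49.9% to 50.2% in si-#2. In bulk RNA, fewer cells with an mRNA and less of that mRNA per cell cannot be told apart, and FPKM are shares of a library rather than amounts per cell.

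**Figure D1:**
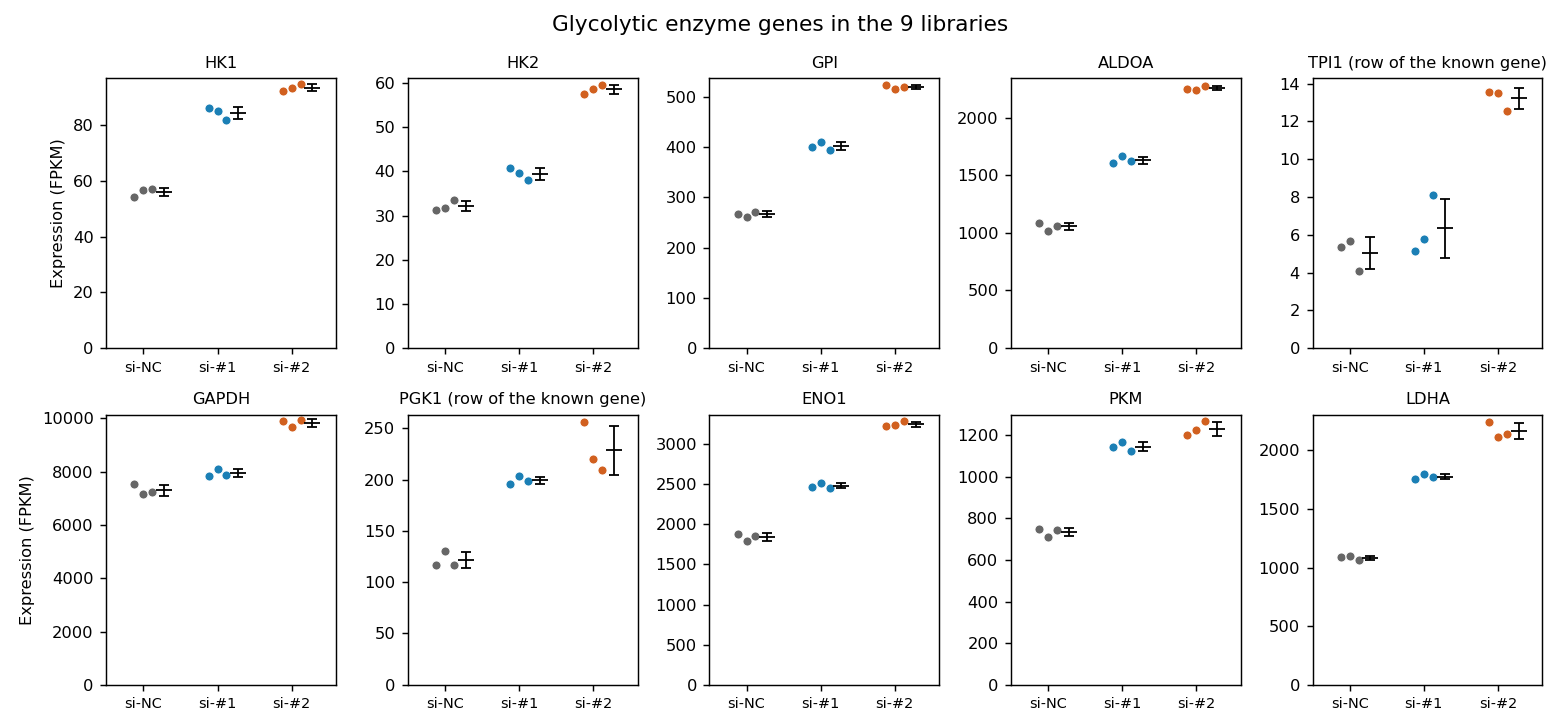
Expression of the 10 glycolytic enzyme genes in FPKM (vertical axes, each from 0) in si-NC, si-#1 and si-#2. Points are libraries, and the black mark beside them is the mean with its SD (n = 3). The 3 groups form separate steps for every gene except TPI1, whose si-#1 libraries (5.14 to 8.09 FPKM) overlap those of si-NC (4.09 to 5.68 FPKM).

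The study called a gene differentially expressed at a fold change of at least 1.3 and P of at most 0.05, and the same criteria were applied to a limma fit across all tested genes. With si-#1, 7 of the 10 members were higher and none lower, at background rates of 11.1% of tested genes higher and 15.6% lower. With si-#2, 10 of the 10 met them as higher, where 11.0% of tested genes did so as higher and 23.1% as lower. The median log2 fold change of the members was 0.59 with si-#1, against 0.0032 over all tested genes, and 0.88 with si-#2, against -0.0954 over all tested genes. The libraries of si-#1 all lay above those of si-NC for 9 of the 10 members, and this was so for 35.0% of tested genes. With si-#2 it was so for 10 of the 10 members and for 26.9% of tested genes. Both comparisons use the same si-NC libraries, and since they are those of the rule, nothing is read from the counts.

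**Figure D2:**
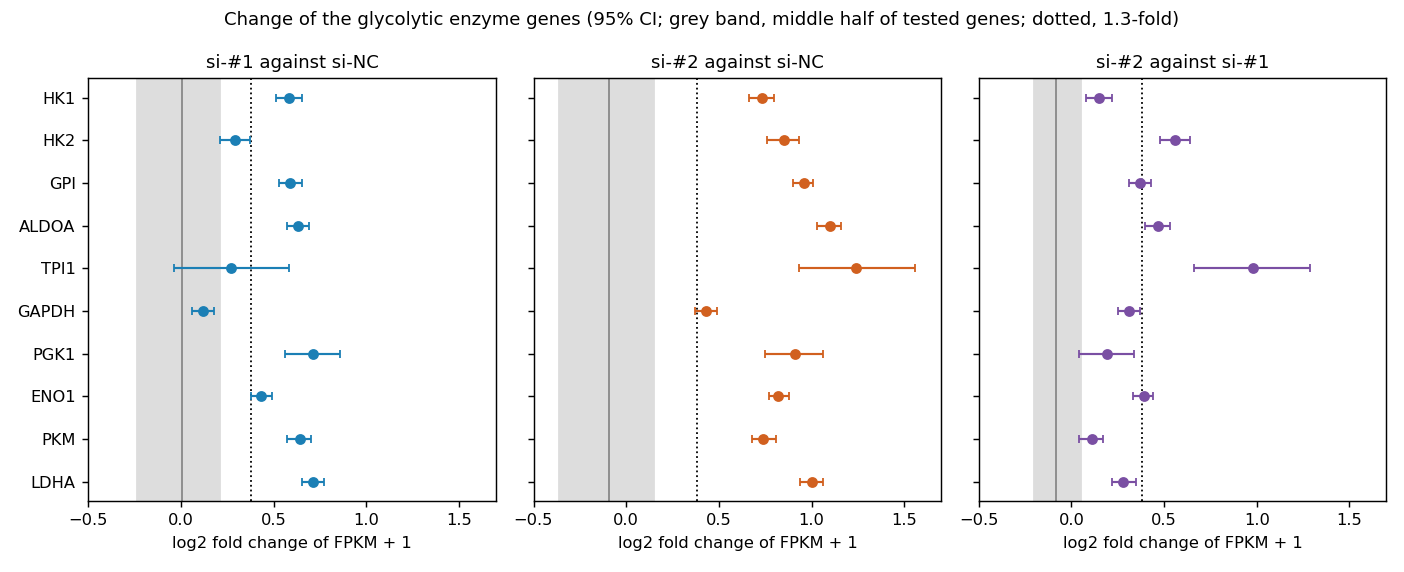
Log2 fold change of FPKM + 1 for the 10 members (horizontal axes) in si-#1 against si-NC, si-#2 against si-NC and si-#2 against si-#1. Points are estimates with their 95% confidence intervals, the grey band runs from the first to the third quartile of all 12884 tested genes with their median as a line, and the dotted line is a fold change of 1.3. Of the rows as deposited, GAPDH has the smallest change in both comparisons with si-NC, 0.12 and 0.43.

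Hexokinases, which phosphorylate glucose and so hold it in the cell, differed between their 2 members. HK2, the inducible form that many tumors express, had 31.2, 31.7 and 33.4 FPKM in si-NC, 40.81, 39.53 and 38.04 in si-#1 and 57.6, 58.7 and 59.6 in si-#2. The 3 groups did not overlap, and the step from si-#1 to si-#2 was larger than that from si-NC to si-#1, with log2 fold changes of 0.29 (95% CI 0.21 to 0.37) for si-#1 and 0.85 (95% CI 0.76 to 0.93) for si-#2 against si-NC. HK1, the more widely expressed form, ranged from 54.3 to 56.9 FPKM in si-NC, from 81.7 to 86.1 in si-#1 and from 92.4 to 94.7 in si-#2. For HK1 the larger step lay between si-NC and si-#1, with log2 fold changes of 0.58 (SE 0.031) and 0.73 (SE 0.031) against si-NC.

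GPI, which turns glucose 6-phosphate into fructose 6-phosphate, ranged from 261 to 272 FPKM in si-NC, from 395 to 410 in si-#1 and from 515 to 523 in si-#2. Its means were 1.5 and 1.94 times that of si-NC on the fitted scale. ALDOA, the aldolase that splits the 6-carbon sugar, had 1086, 1018 and 1063 FPKM in si-NC, 1604, 1665 and 1628 in si-#1 and 2252, 2238 and 2277 in si-#2. Its groups were far apart against a spread of at most 34.2 FPKM (SD, n = 3), and its log2 fold change against si-NC was 0.63 (95% CI 0.57 to 0.69) with si-#1 and 1.10 (95% CI 1.03 to 1.16) with si-#2.

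GAPDH, which oxidizes glyceraldehyde 3-phosphate and makes NADH, had 7538, 7153 and 7232 FPKM in si-NC, 7855, 8114 and 7872 in si-#1 and 9909, 9667 and 9929 in si-#2. All si-#1 libraries lay above all si-NC libraries by a small margin, and all si-#2 libraries lay well above both. The log2 fold change was 0.12 (95% CI 0.06 to 0.18), or 1.09-fold, with si-#1, under the study's limit of 1.3-fold. It was 0.43 (95% CI 0.37 to 0.49), or 1.35-fold, with si-#2, just above that limit. The lower bound of this interval, 0.37, lies below the 0.38 that corresponds to 1.3-fold. These values of GAPDH moved with the scaling of the libraries: a correction for GC content gave 0.29 and 0.66, and rescaling each library to a sum of 1000000 FPKM gave 0.21 and 0.45. Median-ratio scaling left the first at 0.12 and gave 0.54 for the second.

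In the lower part of the pathway, ENO1, the enolase that makes phosphoenolpyruvate, had 1880, 1787 and 1852 FPKM in si-NC, 2469, 2519 and 2458 in si-#1 and 3228, 3236 and 3287 in si-#2. The steps between its groups were similar on the log2 scale, 0.43 (SE 0.025) from si-NC to si-#1 and 0.39 (SE 0.025) from si-#1 to si-#2. PKM, the pyruvate kinase of most tissues and tumors, had 749, 712 and 742 FPKM in si-NC, 1141, 1165 and 1122 in si-#1 and 1202, 1224 and 1268 in si-#2. Nearly all of its difference was thus present with si-#1, and its log2 fold changes against si-NC were 0.64 (SE 0.03) and 0.74 (SE 0.03). The table gives 1 value per gene, so the PKM1 and PKM2 splice forms were not separated. LDHA, which makes lactate from pyruvate, had 1091, 1095 and 1066 FPKM in si-NC, 1752, 1802 and 1777 in si-#1 and 2242, 2117 and 2137 in si-#2. Its log2 fold changes against si-NC, 0.71 (95% CI 0.65 to 0.77) and 1.0 (95% CI 0.94 to 1.06), were among the larger ones of the members, and no libraries of its groups overlapped.

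TPI1 and PGK1 need separate treatment, because the table holds a second, far higher row under the same enzyme entry for each. TPI1, which interconverts the 2 triose phosphates, had 5.34, 5.68 and 4.09 FPKM in si-NC, 5.14, 5.76 and 8.09 in si-#1 and 13.6, 13.5 and 12.6 in si-#2, an estimated 166 to 503 fragments per library. The table also holds genes predicted from these reads, and 1 of them, BGI_novel_G000597, carries the KEGG enzyme entry of triosephosphate isomerase. It lies on a sequence outside the assembled chromosomes, next to predicted genes with the entries of USP5 and SPSB2, which are neighbours of TPI1 on chromosome 12. Its levels were 993, 961 and 969 FPKM in si-NC, 1087, 1102 and 1059 in si-#1 and 1249, 1264 and 1310 in si-#2. The known row was 0.42% to 1.07% of the sum of both rows.

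PGK1, which makes the first ATP of the pathway, was affected in the same way. Its own row on chromosome X had 117, 130 and 117 FPKM in si-NC, 196, 203 and 199 in si-#1 and 256, 220 and 210 in si-#2. BGI_novel_G000649, a predicted gene with the entry of phosphoglycerate kinase that lies beside predicted genes with the entries of ATP7A and TAF9B, the neighbours of PGK1, had 1160, 1162 and 1143 FPKM in si-NC, 1542, 1595 and 1581 in si-#1 and 2171, 2111 and 2081 in si-#2. The known row was 9.2% to 11.3% of the sum of both. How fragments that match both copies were shared out between the rows was not tested, so the values of the known rows alone are uncertain.

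Summed with its predicted row, TPI1 had a mean of 980 ± 16.8 FPKM in si-NC, 1089 ± 20.3 in si-#1 and 1288 ± 31.4 in si-#2 (SD, n = 3 each). The log2 fold change of the sum was 0.15 (95% CI 0.09 to 0.21) with si-#1 and 0.39 (95% CI 0.33 to 0.45) with si-#2, where the known row alone gave 0.27 (95% CI -0.04 to 0.58) and 1.24 (95% CI 0.93 to 1.56). On this reckoning TPI1 stood beside GAPDH (0.12 and 0.43) at the lower end of the members, slightly below it with si-#2, and not at the upper end where its own row with si-#2 would place it. Summed PGK1 had 1276 ± 16.6, 1772 ± 30.5 and 2350 ± 69.7 FPKM in the same order (SD, n = 3 each), with log2 fold changes of 0.47 (95% CI 0.41 to 0.53) and 0.88 (95% CI 0.82 to 0.94). The sums were formed after the values had been seen. With them the median log2 fold change of the members was 0.53 with si-#1 and 0.83 with si-#2, and 7 and 10 members met the criteria as before. The order of the levels changed too: in si-NC summed PGK1 lay between ENO1 (1840 FPKM) and LDHA (1084 FPKM), and summed TPI1 between ALDOA (1056 FPKM) and PKM (734.5 FPKM). With both predicted rows in the members' sum, GAPDH made up 49.7% to 50.3% of it in si-NC, 43.2% to 43.4% in si-#1 and 42.5% to 42.8% in si-#2.

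**Figure D3:**
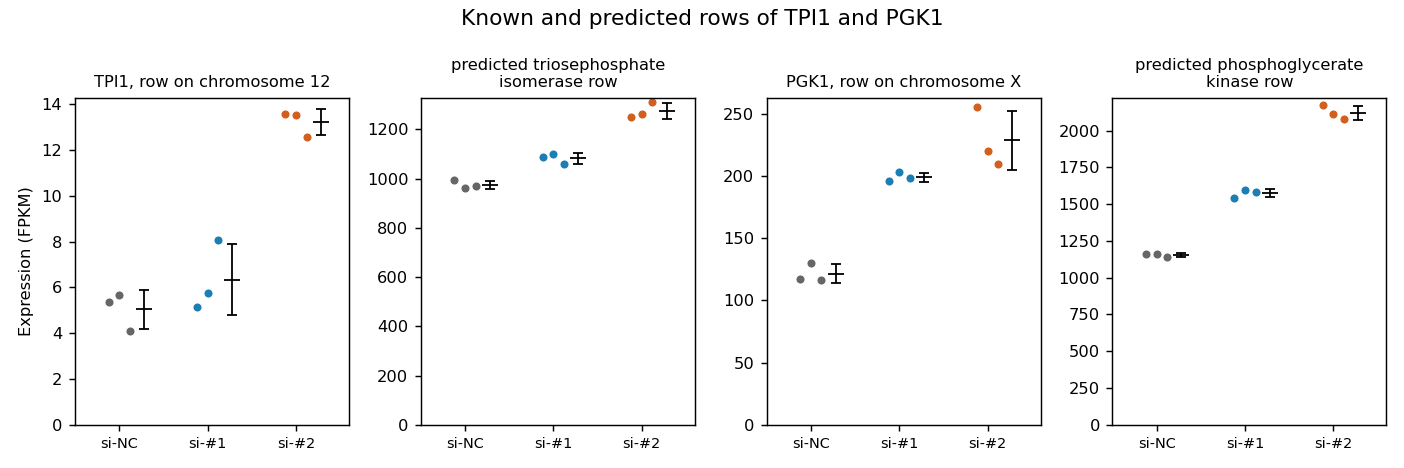
FPKM (vertical axes, each from 0) of the known rows of TPI1 and PGK1 and of the predicted rows with the same enzyme entry, in si-NC, si-#1 and si-#2. Points are libraries and the black marks are means with SD (n = 3). The predicted rows reach 961 to 1310 FPKM and 1143 to 2171 FPKM, against 4.09 to 13.6 FPKM and 117 to 256 FPKM for the known rows.

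Whether the 2 knockdown groups differed from each other was a further question. The rule for the list named the comparison with si-NC, but the same knockdown libraries enter both. The list was also chosen with earlier results of these data known, so the P values below are not those of an independent test. All 9 members other than GAPDH were higher in si-#2 than in si-#1 at an adjusted P of at most 0.05, where 10.2% of tested genes were higher and 33.9% lower by that rule. The count was 6 of 9, without HK1, PGK1 and PKM, when each library was rescaled to a sum of 1000000 FPKM. It was 7, without PGK1 and PKM, when the library X453_1_r2 was left out, and 8 or 9 when any other single library was left out. With the replicate block, without the expression filter or with the 6 compared libraries alone it was 8, without PGK1. By the study's criteria 4 members were higher (HK2, ALDOA, TPI1 and ENO1) and none lower, where 2.19% of tested genes were higher and 5.45% lower. The libraries of si-#2 lay above those of si-#1 for 10 of the 10 members, GAPDH included, which was so for 13.1% of tested genes. The median log2 fold change of the members was 0.34, or 0.37 without GAPDH, against -0.0814 over all tested genes.

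HK2 differed by 0.56 on the log2 scale (95% CI 0.48 to 0.64, adjusted P = 8.3e-06) between the knockdown groups. ALDOA differed by 0.47 (95% CI 0.40 to 0.53, adjusted P = 5e-06), and ENO1 by 0.39 (95% CI 0.33 to 0.44, adjusted P = 7.2e-06), which is at the limit of 1.3-fold and was 0.33, below it, when each library was rescaled to a sum of 1000000 FPKM. That rescaling multiplied the values by 1.88 to 2.04, so it also lowered the effective filter (14211 genes tested) and pseudocount. The known row of TPI1 differed by 0.98 (95% CI 0.66 to 1.29, adjusted P = 0.00055), but its sum with the predicted row by only 0.24 (95% CI 0.18 to 0.30, adjusted P = 0.00014), below the limit. For PGK1 the reverse held, with 0.19 (adjusted P = 0.043) for the known row, 0.11 (adjusted P = 0.096) for it without the library X453_2, and 0.41 (95% CI 0.35 to 0.47, adjusted P = 9.5e-06) for the sum. The smallest difference was that of PKM, 0.11 (95% CI 0.04 to 0.17, adjusted P = 0.016), which was 0.04 (adjusted P = 0.18) after the rescaling to 1000000 FPKM and 0.21 (adjusted P = 0.0011) with median-ratio scaling. GPI (0.37), LDHA (0.28) and HK1 (0.15) lay between. GAPDH had a difference of 0.31, given without a test. With median-ratio scaling GPI (0.48), LDHA (0.39) and GAPDH (0.41) passed the limit too, so that 7 members met the criteria.

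The members leave out the phosphofructokinase and phosphoglycerate mutase steps, and several of their own steps have further genes. Of 22 other genes of glycolytic enzymes, 21 were in the table and 12 were tested. With si-#1, 3 of the 12 were higher by the criteria and 2 lower, and with si-#2, 3 were higher and 3 lower, at background rates of 11.1% and 15.6% and of 11.0% and 23.1%. Their median log2 fold change was -0.07 with si-#1 and -0.04 with si-#2. All lists were chosen with earlier results of these data known, and most genes named from them are named because they met the criteria. The adjusted P values given for genes of this and the following lists thus describe selected genes and are not independent tests. PGAM1, the phosphoglycerate mutase that works between PGK1 and ENO1, rose from 264 FPKM in si-NC to 424 in si-#1 and 475 in si-#2, with log2 fold changes of 0.68 (adjusted P = 3.6e-08) and 0.84 (adjusted P = 4e-09).

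The committed step, phosphofructokinase, was split between its genes. PFKP, the platelet form, rose by 0.38 (95% CI 0.29 to 0.48, adjusted P = 2.5e-05) with si-#1 and by 0.56 (95% CI 0.47 to 0.65, adjusted P = 1.4e-06) with si-#2. The first of these values is at the fold limit. PFKL, the liver form, went the other way and had a log2 fold change of -0.59 (adjusted P = 7.5e-05) and -0.45 (adjusted P = 0.00042), from 75.6 FPKM in si-NC to 49.8 and 55.3. PFKM, the muscle form, was also lower, by amounts short of the fold limit (-0.22 with si-#1 and -0.12 with si-#2). HKDC1, a further hexokinase gene, was lower in both groups (-0.52, adjusted P = 9.8e-06, and -0.65, adjusted P = 1.5e-06). ENO3, the muscle enolase, had log2 fold changes of -0.34 (adjusted P = 5.1e-06) and -0.50 (adjusted P = 2.7e-07), the second of which reached the fold limit. ENO2, the neuronal enolase, was low at 4.35 FPKM in si-NC and rose by 0.41 (adjusted P = 0.039) and 0.69 (adjusted P = 0.0025). Its row is uncertain as that of TPI1 is, because 4 predicted genes with the enolase entry lie on the same sequence as the predicted TPI1 row and sum to 121 FPKM in si-NC, 162 in si-#1 and 190 in si-#2.

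Fructose 2,6-bisphosphate, the allosteric activator of phosphofructokinase, is made and removed by the PFKFB enzymes. Of 6 genes of this group, GCKR included, 4 were tested, and 2 met the criteria as higher with either siRNA and none as lower. Over all tested genes the shares were 11.1% higher and 15.6% lower with si-#1, and 11.0% and 23.1% with si-#2. PFKFB3, the form with the highest kinase activity, had 18.9, 17.6 and 17.6 FPKM in si-NC, 44.1, 44.5 and 40.1 in si-#1 and 73.7, 76.2 and 77.6 in si-#2. Its log2 fold change of 1.21 (95% CI 1.10 to 1.31, adjusted P = 5e-08) and 2.02 (95% CI 1.91 to 2.12, adjusted P = 8.5e-10) exceeded that of any member, and it differed by 0.81 (adjusted P = 4e-06) between the knockdown groups. PFKFB4 rose by 0.54 (adjusted P = 1.8e-06) and 0.82 (adjusted P = 7.7e-08).

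Transport at both ends of the pathway was mixed. Of 15 genes for glucose and lactate carriers 7 were tested, of which 1 was higher and 1 lower with si-#1, and 2 were higher and 3 lower with si-#2. The shares over all tested genes were 11.1% higher and 15.6% lower with si-#1, and 11.0% and 23.1% with si-#2. SLC2A3, the glucose transporter GLUT3, had 95.4, 103 and 100.2 FPKM in si-NC, 225, 226 and 227 in si-#1 and 306, 283 and 280 in si-#2, a log2 fold change of 1.18 (adjusted P = 2.2e-08) and 1.53 (adjusted P = 1.6e-09). The more abundant glucose transporter SLC2A1 (GLUT1) had means of 422, 438 and 474 FPKM in the same order. Its log2 fold changes of 0.06 and 0.17 were below the fold limit. The lactate exporter SLC16A3 (MCT4) fell, from a mean of 148 FPKM in si-NC to 71.6 and 82.7, with log2 fold changes of -1.04 (adjusted P = 1.4e-05) and -0.84 (adjusted P = 4.7e-05). SLC16A1 (MCT1), the other monocarboxylate carrier, had -0.18 with si-#1 and -0.77 (adjusted P = 3.1e-07) with si-#2. BSG, the chaperone of both carriers, went up by 0.32 with si-#1, short of the fold limit, and by 0.44 (adjusted P = 1e-05) with si-#2. SLC2A12 was lower with si-#2 (-0.40, adjusted P = 8.5e-05).

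At the exit toward the mitochondrion, 14 of 14 genes were tested, of which 2 were higher and 1 lower with si-#1 (11.1% and 15.6% of all tested genes) and 3 higher and 2 lower with si-#2 (11.0% and 23.1%). The kinases that switch off pyruvate dehydrogenase did not move as 1 group. PDK1 rose with si-#2 (0.59, adjusted P = 1.3e-06) and had 0.11 with si-#1, PDK3 had 0.36 and 0.48 (adjusted P = 8.7e-06 for si-#2), and PDK2 fell by both (-0.59, adjusted P = 1.6e-05, and -0.85, adjusted P = 1e-06). MPC1, a subunit of the mitochondrial pyruvate carrier, rose by 0.55 (adjusted P = 4.6e-05) and 0.41 (adjusted P = 0.00026). DLD, the dihydrolipoamide dehydrogenase subunit, was lower with si-#2 (-0.50, adjusted P = 4.9e-06), and the phosphatase gene PDP2 was higher with si-#1 (0.38, adjusted P = 0.00017).

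**Figure D4:**
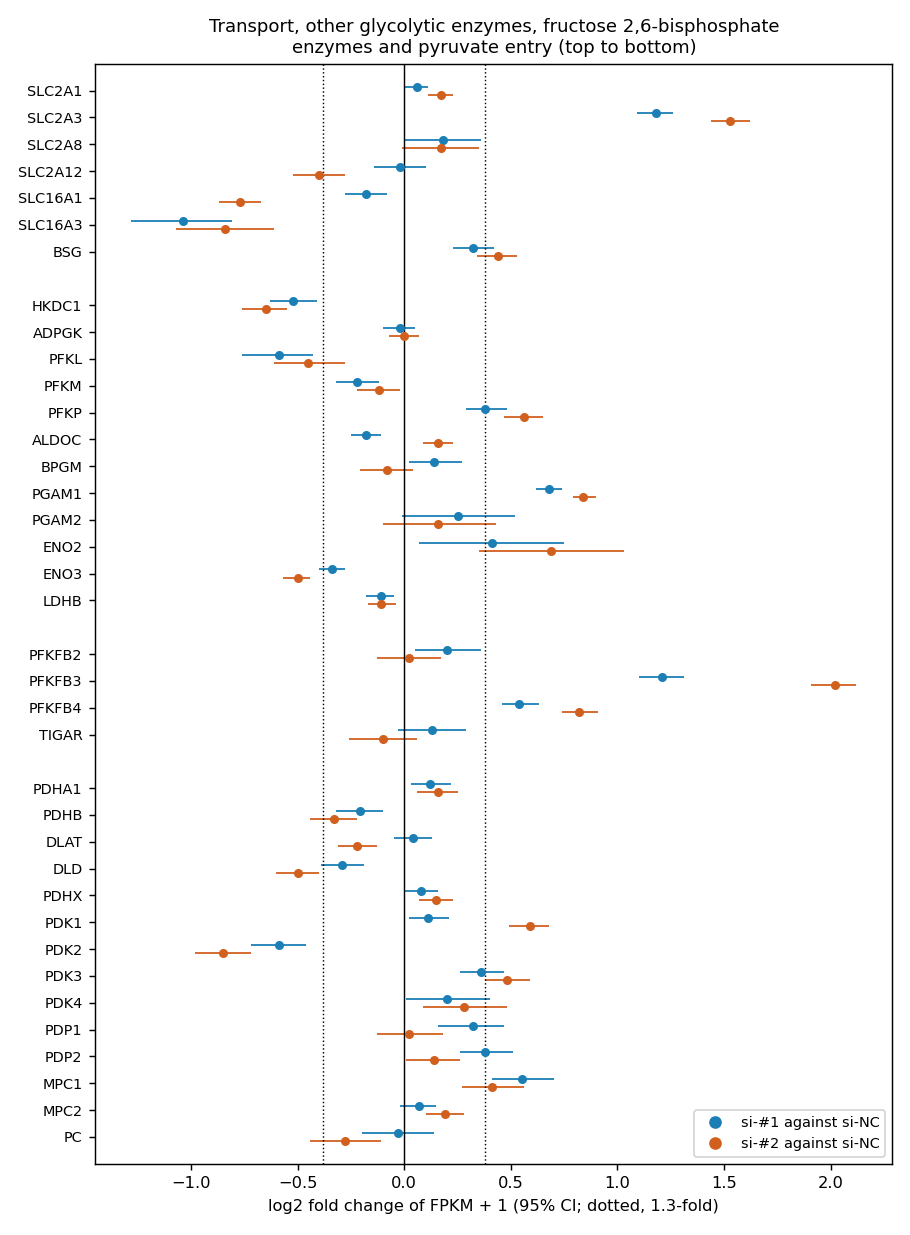
Log2 fold change of FPKM + 1 (horizontal axis, with 95% confidence intervals) against si-NC for si-#1 and si-#2, for the tested genes of 4 lists, from top to bottom transport, other glycolytic enzymes, fructose 2,6-bisphosphate enzymes and pyruvate entry. Dotted lines mark a fold change of 1.3. PFKFB3 and SLC2A3 lie farthest to the right, with 2.02 and 1.53 for si-#2, and SLC16A3 lies farthest to the left, with -1.04 for si-#1.

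Branches of the pathway and its reverse steps gave counts near the background. Of 23 such genes 19 were tested, with 2 higher and 4 lower with si-#1 and 2 higher and 5 lower with si-#2, and medians of -0.03 and -0.12. The background was 11.1% of tested genes higher and 15.6% lower with si-#1, and 11.0% and 23.1% with si-#2. PCK2, the mitochondrial form of the gluconeogenic enzyme PEPCK, fell most in this list, with 46.4 FPKM in si-NC, 14.6 in si-#1 and 9.55 in si-#2 (log2 fold changes of -1.60, adjusted P = 1.2e-08, and -2.17, adjusted P = 6.8e-10), whereas the cytosolic form PCK1 rose by 0.51 with each siRNA (adjusted P = 4.5e-05 and 3.9e-05). PGD, of the pentose phosphate pathway, fell by 0.65 with each (adjusted P = 3e-07 and 1.7e-07), and GFPT1, the entry to hexosamine synthesis, by 0.64 and 0.62 (adjusted P = 6.5e-07 and 4.4e-07). The glycogen phosphorylases parted, PYGB with -0.57 and PYGL with 0.51 with si-#2 (adjusted P = 9.7e-07 and 3.7e-07).

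Of 8 transcription factors known to act on glycolytic genes, all 8 were tested, with 2 higher and 2 lower with si-#1 and 1 higher and 2 lower with si-#2, where 11.1% and 15.6% of tested genes were higher and lower with si-#1 and 11.0% and 23.1% with si-#2. HIF1A had a mean of 28.9 FPKM in si-NC, 40.5 in si-#1 and 28.8 in si-#2, so that it rose by 0.48 (adjusted P = 5.4e-06) with si-#1 and had a log2 fold change near 0 with si-#2 (95% CI -0.09 to 0.09). EPAS1, which encodes HIF-2alpha and is counted among the higher genes in both comparisons, had means of 0.653 FPKM in si-NC, 2.36 in si-#1 and 2.80 in si-#2. It passed the expression filter only through the knockdown libraries, where it is high, so it is given without a P value. MLXIPL, which encodes the glucose sensor ChREBP, fell by 0.83 and 0.87 (adjusted P = 2.4e-06 and 1.1e-06), and ESRRA, the estrogen-related receptor alpha, fell by 1.19 and 1.2 (adjusted P = 4.3e-06 and 2.8e-06).

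GAPDH was also set beside 14 other genes in common use as references. With si-#1, 3 of the 14 had a smaller absolute log2 fold change than GAPDH (0.12) and 11 a larger one. With si-#2, 12 of the 14 had a smaller one than GAPDH (0.43) and 2 a larger one, namely RPL13A and TFRC. These ranks include near ties: with si-#1, B2M and SDHA had 0.13 and TUBB -0.13, and with si-#2, RPL13A had -0.44. GAPDH itself moved with the scaling, to 0.29 and 0.66 with the GC correction, and the ranks were not compared under other scalings. It was also chosen for its rise, so nothing is read from its rank. PPIA stayed closest to 0 over both, with 512, 504 and 497 FPKM in si-NC, 490, 506 and 494 in si-#1 and 530, 502 and 507 in si-#2, and log2 fold changes of -0.02 (95% CI -0.08 to 0.04) and 0.02 (95% CI -0.04 to 0.09).

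The tubulin genes went in opposite directions by small amounts, TUBA1B with 0.16 (adjusted P = 0.00098) and 0.25 (adjusted P = 3e-05) and TUBB with -0.13 (adjusted P = 0.0015) and -0.23 (adjusted P = 3.7e-05). By the criteria 3 of the 14 reference genes were higher and 2 lower with si-#1, and 1 was higher and 1 lower with si-#2. Among all tested genes 11.1% were higher and 15.6% lower with si-#1, and 11.0% and 23.1% with si-#2. ACTB rose by 0.57 (adjusted P = 1.4e-06) with si-#1 and had 0.35 with si-#2, and TFRC, the transferrin receptor, changed by 1.75 (adjusted P = 2.9e-09) and 1.99 (adjusted P = 3.8e-10).

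**Figure D5:**
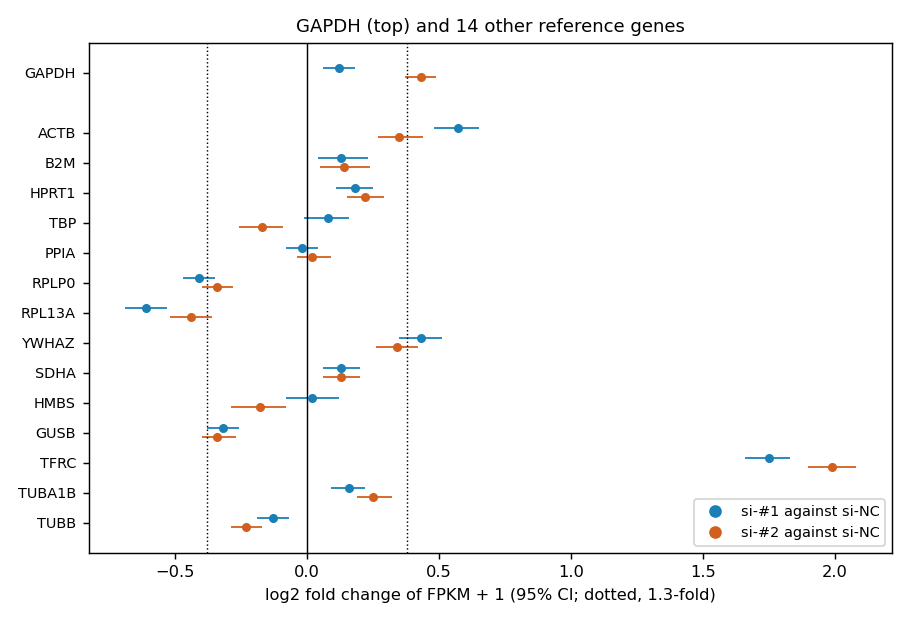
Log2 fold change of FPKM + 1 (horizontal axis, with 95% confidence intervals) against si-NC for GAPDH and 14 other reference genes, with si-#1 and si-#2. Dotted lines mark a fold change of 1.3. GAPDH lies at 0.12 and 0.43, PPIA at -0.02 and 0.02, and TFRC at 1.75 and 1.99.

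The pattern of GAPDH over the 9 libraries was most like that of CXCR4 (Pearson's r = 0.9963), CNBP (0.9914), DDIT3 (0.9903), NR4A1 (0.9901) and ANKRD37 (0.9899), the 5 tested known genes with the highest correlation outside the members. They were not alike in size: the mean level of CNBP went from 95.9 FPKM in si-NC to 103 and 119, and that of ANKRD37 from 90.7 to 116 and 201. CXCR4 was low, with means of 0.61 FPKM in si-NC, 1.49 in si-#1 and 4.78 in si-#2. It passed the expression filter only through the knockdown libraries, where it is high. Among the members HK2 was most like GAPDH (r = 0.98), and 0.202% of tested genes had a higher r. ENO1 (0.958) and ALDOA (0.942) followed, and PKM (0.801) was least like it. These correlations describe 9 libraries that fall into 3 groups, and they carry no P value.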

How the data were processed

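Total RNA of 9 libraries (3 groups of 3, BGISEQ-500) was analysed. The authors deposited 1 table with FPKM per gene and library. The submitters' processing notes name Bowtie2 and GRCh37.p13, and the quantification tool and its handling of multiply matching reads were not given in the sources used here. Columns of log2 ratios, P values and Q values are the authors' own comparisons and were not used. Library depth came from whole-fragment spacing of low FPKM in genes with 1 transcript, and intervals here cover the spread between libraries only. Of 19934 lines, 4 held no values.

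Log2(FPKM + 1) was fitted for the 12884 genes that averaged 1 FPKM or more with limma 3.58.1 (R 4.3.3, trended eBayes, all 9 libraries, no replicate block), with Benjamini-Hochberg adjustment over all tested genes. Fold changes are on the log2(FPKM + 1) scale, which understates changes of low genes. The members and all gene lists were chosen with earlier results of these data known. Named besides the members are genes of other lists that met the criteria with either siRNA (at most 6 per list, by mean absolute log2 fold change), any reference gene, and the 5 genes most like GAPDH. PFKM and SLC2A1, which did not meet the criteria, are named for comparison. Genes named in captions or as neighbours, markers or primer matches only locate or check a result. Alternatives were another pseudocount, filter, scaling, call rule, set of libraries, replicate block, leaving out each library, a GC correction (11380 tested genes with a GC value, 88.3%) and, added after the data were seen, sums of known and predicted rows and the median without GAPDH. Primers were matched to GENCODE v29 transcripts and promoter windows taken from RefSeq, both on GRCh38, and no coordinates were converted. Some genes of the lists are not reported here.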

Additional observations from a re-analysis of the deposited data

Results flagged for a closer look

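Of the 9 members other than GAPDH, 4 differed between the knockdown groups by at least 1.3-fold as well as by the adjusted P of the limma fit. By the study's criteria 2.19% of all tested genes were higher in this comparison. For 13.1% of all tested genes the libraries of si-#2 lay above those of si-#1. The log2 fold change of si-#2 against si-#1 was 0.56 for HK2 (adjusted P = 8.3e-06), 0.47 for ALDOA (adjusted P = 5e-06), 0.39 for ENO1 (adjusted P = 7.2e-06) and 0.98 for the known row of TPI1 (adjusted P = 0.00055), and in each case all 3 si-#2 libraries lay above all 3 si-#1 libraries. Rescaling each library to a sum of 1000000 FPKM, which also lowered the effective filter and pseudocount, took ENO1 to 0.33 and below the fold limit, and adding the predicted row took TPI1 to 0.24.

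Signal of member enzymes was present in rows that the lists of known genes do not reach. The predicted row BGI_novel_G000597, with the entry of triosephosphate isomerase, had a mean of 974.5 FPKM in si-NC, and BGI_novel_G000649, with the entry of phosphoglycerate kinase, had 1155 FPKM.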

How the results depend on the processing

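Of 570 recomputed log2 fold changes of members over 19 alternatives, 559 kept their direction and their side of the study's criteria. A further 9 newly met the criteria, 2 no longer met them and none changed sign. Much of this was fixed in advance, so the count does not measure robustness. Another filter, the adjusted P rule, the replicate block and the compared libraries alone leave a log2 fold change as it was. So does leaving out a library of the group not compared. In these settings only the P value could move. Summing rows changed the log2 fold changes of TPI1 and PGK1 only. The members' median in si-#1 against si-NC (0.59) was 0.53 with summed TPI1 and PGK1 rows and 0.67 after rescaling each library to a sum of 1000000 FPKM, which multiplied values by 1.88 to 2.04 and so also lowered the effective filter (14211 genes tested) and pseudocount. In si-#2 against si-NC (0.88) it was 0.83 with summed rows, 0.91 after that rescaling or without GAPDH, 0.93 with the GC correction, 0.98 with median-ratio scaling and 0.84 without the library X453_2 (0.84 to 0.90 over the leave-one-out fits). In si-#2 against si-#1 (0.34) it was 0.42 with the GC correction, 0.28 after that rescaling, 0.45 with median-ratio scaling and 0.37 without GAPDH. Median-ratio scaling took the members that met the criteria in this comparison from 4 to 7.

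Counts over all genes moved more. A filter at a mean of 5 FPKM lowered the genes tested from 12884 to 8610. It left 2211 of 3436 genes for si-#1, 2714 of 4385 for si-#2 and 547 of 984 for si-#2 against si-#1. The last count was 581 with the GC correction, 1656 with a pseudocount of 0.1 and 1948 after that rescaling; the cause was not tested. The split of higher against lower genes was 1432 to 2004 for si-#1 and 2589 to 1928 after that rescaling. For si-#2 it was 1411 to 2974, 1977 to 2241 with median-ratio scaling and 1773 to 1635 with the GC correction, which moved the median of all genes from -0.095 to 0.006. For si-#2 against si-#1 it was 282 to 702, 526 to 321 with median-ratio scaling, 334 to 247 with the GC correction and 274 to 1674 after that rescaling.

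Same-labelled libraries did not deviate together (correlations of -0.239 to 0.104). This cannot tell whether they shared a culture or a day, which the labels do not say. A fit with the replicate block gave 3449, 4400 and 988 genes for si-#1, si-#2 and si-#2 against si-#1, with 7, 10 and 4 members higher. The known row of TPI1 rests on an estimated 166 to 503 fragments per library. In si-#1 against si-NC (0.27) its log2 fold change was 0.39 without X453_1 and 0.10 without X453_1_r2. Why it moved was not tested. PGK1 in si-#2 against si-#1 (0.19) ranged from 0.11 without X453_2 to 0.25 without X453_2_r2, with an adjusted P above 0.05 in 7 of the 9 leave-one-out fits.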

Other observations

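A predicted gene on chromosome 9 with the KEGG entry of lactate dehydrogenase, BGI_novel_G002908, had 8.1 FPKM in si-NC, 12.6 in si-#1 and 17.5 in si-#2, in the same order as LDHA at a level far below it. Of the 4 predicted enolase rows beside the predicted TPI1 row, BGI_novel_G000602 had a lower mean in the knockdown groups (11.1, 5.4 and 7.1 FPKM), and the other 3 a higher one.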
